A study of Mus musculus with 4 samples.

Results

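Broad promoter domains of histone H3 lysine 27 acetylation (H3K27ac) in the mouse heart were taken as the peaks of the replicated peak list that were at least 5000 bp wide and lay within 1 kb of the 5' end of a protein-coding gene record of GENCODE M21 on mm10. There were 362 such domains among 63061 peaks, which is 0.574% of the list, and 13366 peaks in all lay that close to a coding 5' end. They were set against 2460 promoter peaks of 2 to under 5 kb, 10544 promoter peaks under 2 kb, and 480 peaks of at least 5 kb that lay elsewhere. The data were 4 chromatin immunoprecipitation libraries of heart tissue from female B6CASTF1/J mice aged 2 months, a cross of C57BL/6J with CAST/EiJ. The libraries formed 1 group of 2 biological replicates with 2 technical replicates each, and each biological replicate was a pool of 2 heart samples. Both pools carry the same donor identifier in the labels, so the differences between them may be technical. There was no other tissue, age, sex or treatment, so all comparisons are between classes of peaks, between genes and between the lists of the replicates. The domains were chosen by their measured width, and width, enrichment and q-value come from the same peak calls, so these are given as descriptions and no test was run on them.

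Acetylated lysine 27 marks the nucleosomes of promoters and enhancers in use, and is laid down by the acetyltransferases p300 and CBP. At most active promoters the mark flanks the start site over a short stretch. Wide stretches of the mark at a promoter are known from genes that define a cell type and from genes that are quickly induced, and in the heart they can come from any of its cell types: muscle cells, endothelial cells, fibroblasts, mural cells and resident leukocytes. In whole tissue, fewer cells of a type and less acetylation per cell cannot be told apart.

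The promoters beneath these domains did not have a single kind of sequence. The 300 bases from 250 before to 50 after the 5' end, read from GRCm38 (the assembly of mm10) and written 5' to 3' in the sense of the gene, are given for the widest domain of several functional groups to show how far they differ. Capitals mark CpG dinucleotides, the sites of DNA methylation that are dense in CpG islands. The first set had 24 CpGs in each window and belongs to Mef2d, a transcription factor of heart muscle, Myom1, which encodes the M-band protein myomesin, and Hadhb, which encodes a subunit of the mitochondrial trifunctional protein of fatty acid oxidation.
Mef2d (chr3:88142122-88142421, plus strand): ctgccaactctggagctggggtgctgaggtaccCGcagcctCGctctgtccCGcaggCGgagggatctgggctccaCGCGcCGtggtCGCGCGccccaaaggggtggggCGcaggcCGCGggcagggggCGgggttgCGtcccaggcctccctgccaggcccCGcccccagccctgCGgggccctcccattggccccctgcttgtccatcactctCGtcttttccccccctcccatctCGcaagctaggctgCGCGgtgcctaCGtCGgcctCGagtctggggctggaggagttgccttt
Myom1 (chr17:71002383-71002682, plus strand): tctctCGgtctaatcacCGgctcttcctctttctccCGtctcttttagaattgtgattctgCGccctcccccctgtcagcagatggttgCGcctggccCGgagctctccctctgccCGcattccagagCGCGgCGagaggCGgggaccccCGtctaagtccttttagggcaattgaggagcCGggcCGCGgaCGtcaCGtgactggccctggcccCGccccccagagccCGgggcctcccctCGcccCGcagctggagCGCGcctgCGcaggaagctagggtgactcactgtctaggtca
Hadhb (chr5:30154998-30155297, plus strand): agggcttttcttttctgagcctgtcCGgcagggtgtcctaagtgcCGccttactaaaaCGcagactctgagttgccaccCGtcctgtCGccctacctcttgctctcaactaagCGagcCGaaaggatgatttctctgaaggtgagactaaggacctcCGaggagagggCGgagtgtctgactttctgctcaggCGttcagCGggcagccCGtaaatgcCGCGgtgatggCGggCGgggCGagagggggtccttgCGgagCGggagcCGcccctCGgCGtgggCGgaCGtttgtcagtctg

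The second set held few CpGs. The domains at these 5' ends were 8.09 to 12.7 kb wide, against 11.5 to 15.7 kb in the first set. The window of Pln, which encodes the calcium pump inhibitor phospholamban, had 2 CpGs, that of Fhl2, a LIM-domain gene of heart muscle, had 4, and that of Eng, an endothelial co-receptor for TGF-beta family ligands, had 6. Fhl2 is shown because it had the lowest CpG ratio of all 362 domains.
Pln (chr10:53337417-53337716, plus strand): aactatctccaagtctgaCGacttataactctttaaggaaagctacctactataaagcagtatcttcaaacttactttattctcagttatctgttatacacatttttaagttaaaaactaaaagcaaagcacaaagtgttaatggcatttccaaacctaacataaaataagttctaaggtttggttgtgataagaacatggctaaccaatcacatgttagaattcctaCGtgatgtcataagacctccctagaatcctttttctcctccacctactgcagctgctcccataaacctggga
Eng (chr2:32646345-32646644, plus strand): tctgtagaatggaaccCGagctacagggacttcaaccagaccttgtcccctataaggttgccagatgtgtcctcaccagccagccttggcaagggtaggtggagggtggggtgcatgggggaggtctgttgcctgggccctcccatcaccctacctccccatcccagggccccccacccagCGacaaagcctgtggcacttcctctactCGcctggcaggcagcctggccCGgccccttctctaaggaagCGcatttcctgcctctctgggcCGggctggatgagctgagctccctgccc
Fhl2 (chr1:43196935-43197234, minus strand): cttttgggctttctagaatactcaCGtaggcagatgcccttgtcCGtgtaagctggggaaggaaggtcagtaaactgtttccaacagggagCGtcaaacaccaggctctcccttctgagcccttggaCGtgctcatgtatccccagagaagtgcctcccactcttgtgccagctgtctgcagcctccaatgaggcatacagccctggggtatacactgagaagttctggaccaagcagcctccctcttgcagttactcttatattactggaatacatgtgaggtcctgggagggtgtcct

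The 362 domains had a median width of 6.25 kb (quartiles 5.50 and 7.71 kb), 155 of them were under 6 kb and 31 were at least 10 kb. Together they covered 2.51 Mb, which is 3.76% of the length of all peaks and 12.7% of the length of all promoter peaks. They touched 401 of 21938 protein-coding genes, which is 1.83% of all coding genes and 3.43% of the 11689 genes with any peak within 1 kb of the 5' end. Of the domains, 321 lay at the 5' end of 1 coding gene, 38 lay at those of 2 and 3 at those of 3 or more. The limit cut through a continuous range of widths. Just inside it were the domains of Dll4, a Notch ligand of endothelial cells, at 5012 bp, Ppp1r2 at 5015 bp and Gtf2i at 5019 bp. Just outside were the promoter peaks of Tal1, a transcription factor of blood and endothelium, and Zyx, a focal adhesion gene, both at 4997 bp, and Man1a2 at 4996 bp.

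The widest domain, 17.5 kb at chr7:63900212-63917679, was assigned to E030018B13Rik, but 95.3% of it lay upstream of that 5' end, inside the body of Klf13, which runs on the other strand and had a domain of 5.71 kb at its own 5' end. Its summit lay 5.03 kb upstream of the 5' end of E030018B13Rik. The widest peak overlapping it was 15.6 kb in replicate 1 and 17.5 kb in replicate 2. The next, Mef2d at chr3:88136635-88152299, was 15.7 kb wide, with 61.4% of its length in introns of the gene, 1.93% in exons and the remaining 36.6% upstream. In the lists of the single pools, the widest peak that overlapped the Mef2d domain measured 9.83 kb in replicate 1 and 17.3 kb in replicate 2. Elk3, an ETS-family factor of blood vessels, had a domain of 14.6 kb at chr10:93298123-93312710, with 86.6% of it in introns. It measured 14.2 kb in replicate 1 and 20.3 kb in replicate 2. The Elk3 domain was therefore wide in each pool, while that of Mef2d was broken into 2 pieces in replicate 1.

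Bcl6, which encodes a transcriptional repressor, followed with 13.6 kb at chr16:23978489-23992096, against 7.70 kb in replicate 1 and 13.98 kb in replicate 2. Rasal2, which encodes a GTPase-activating protein of Ras, had 13.2 kb, and was the only member of the 15 widest that was wider in replicate 1 (11.4 kb) than in replicate 2 (9.32 kb) by more than 1 kb. Sema7a, which encodes a membrane-anchored semaphorin, had 12.99 kb, with a widest overlapping peak of 7.48 kb in replicate 1, where the domain was in 4 pieces, and 17.1 kb in replicate 2. Pln had 12.7 kb, with 6.19 kb in replicate 1 and 21.0 kb in replicate 2. Both therefore reached 5 kb in each pool, with more width in replicate 2. Klf3, a Krüppel-like repressor, was nearly equal in all lists at 12.1 kb, 11.8 kb in replicate 1 and 12.2 kb in replicate 2. Irs1, which encodes the adaptor of the insulin receptor, had 11.97 kb, with a widest overlapping peak of 6.98 kb in replicate 1 and 12.2 kb in replicate 2.

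The rest of the 15 widest were Gm16253 with 12.5 kb, the shared domain of Myl12b, Myom1 and Myl12a with 11.7 kb, Mfn2, a mitochondrial fusion gene, with 11.7 kb, Ahnak, which encodes a very large scaffold protein, with 11.7 kb, Mcl1, an anti-apoptotic member of the BCL2 family, with 11.6 kb, and the shared domain of Hadha and Hadhb with 11.5 kb. Hadha and Hadhb encode the 2 subunits of 1 enzyme and are transcribed from neighbouring starts in opposite directions, so a single domain at chr5:30151206-30162699 lay over both starts. Its widest piece was 7.00 kb in replicate 1 and 11.96 kb in replicate 2. Of the 15, only Mfn2 had no overlapping peak of 5 kb in replicate 1, where its widest piece was 4.20 kb.

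**Figure D1:**
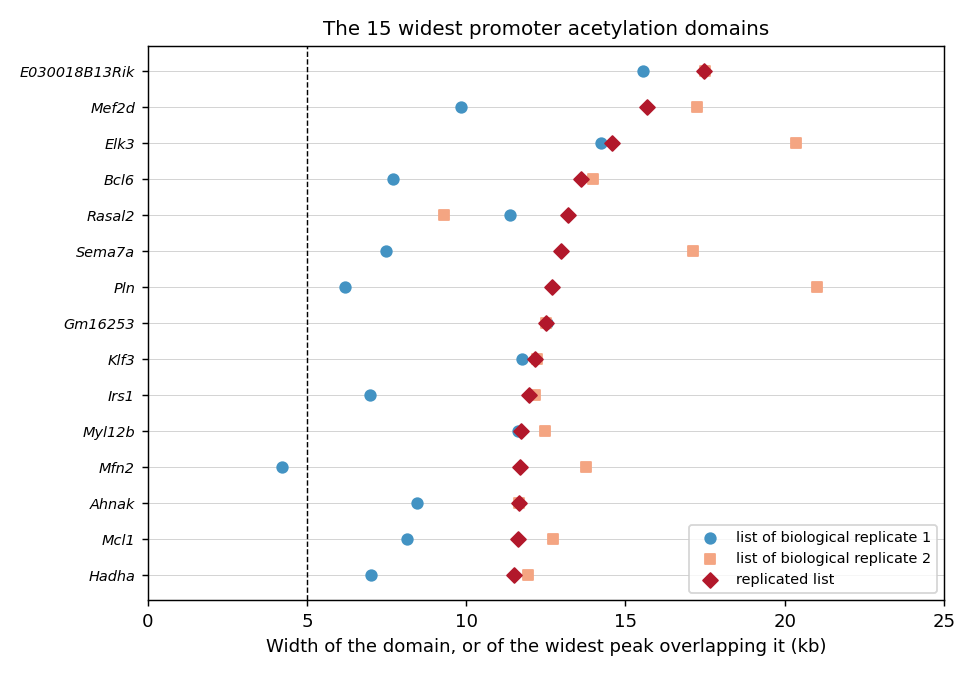
Width in kb of the 15 widest domains in the replicated list (diamonds), and of the widest peak overlapping each in the list of biological replicate 1 (circles) and of biological replicate 2 (squares), by the gene each is assigned to; the dashed line is the 5 kb limit. Mfn2 stands at 11.7 kb in the replicated list and at 4.20 kb in replicate 1, while Klf3 stands between 11.8 and 12.2 kb in all 3 lists.

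Genes of heart muscle were examined by role, starting with transcription factors. For genes of the lists, a width in a single pool is that of the widest peak within 1 kb of the gene's 5' end, which can be 1 piece of a broken domain. Of 25 cardiac transcription factors, 9 had a broad domain (36.0%), beside 1.83% of all coding genes, and the median width of the promoter peak over the list was 4.04 kb, beside 0.459 kb over all coding genes and 1.39 kb over those with a promoter peak. After Mef2d came Hand2, a basic helix-loop-helix factor of the ventricles, with 11.4 kb, and Gata6, a zinc-finger factor of the early heart, with 11.3 kb. Gata6 measured 11.2 kb in replicate 1 and 14.2 kb in replicate 2. Tbx20, a T-box factor, had 9.36 kb, with 8.07 kb in replicate 1 and 9.98 kb in replicate 2. Meis1, a homeodomain factor that restrains the cell cycle of heart muscle cells in the mouse, had 8.65 kb. Gata4, Myocd, Irx4 and Nkx2-5 had 6.25, 6.18, 6.004 and 5.31 kb. In the list of replicate 1, 8 members reached 5 kb, beside 1.05% of all coding genes. In that of replicate 2, 12 did, beside 2.87%. These shares are also the background for the single-pool counts of the lists that follow. Nkx2-5 had 3.28 kb in replicate 1. The widest members below the limit were Foxo3 with 4.76 kb, Zfpm2, a GATA cofactor, with 4.74 kb, and Mef2a with 4.17 kb. Hand1, Mef2c and Nfic had no peak within 1 kb of the 5' end of the gene record. Mef2c had a peak of 11.6 kb within its body at an internal start site, 61.1 kb from the nearest coding 5' end, which the definition leaves out.

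Of 22 sarcomere genes, 7 had a broad domain (31.8%, beside 1.83% of all coding genes), with a median promoter peak of 3.88 kb over the list. The domain at Myom1 was the widest at 11.7 kb, but it was shared with Myl12b and Myl12a and was assigned to Myl12b. Of its length, 82.3% lay downstream of the 5' end of Myl12b, which runs on the other strand from Myom1. The domain hardly differed between the pools, at 11.6 kb in replicate 1 and 12.5 kb in replicate 2. Csrp3, a muscle LIM protein of the Z-disc, had 7.89 kb, with 6.17 kb in replicate 1 and 9.19 kb in replicate 2. Nexn, an actin-binding Z-disc gene, had 7.23 kb. Tpm1, which encodes tropomyosin, had 7.06 kb, and its summit lay 5.77 kb inside the gene. Ldb3, Tnnc1 and Xirp1 had 6.22, 6.05 and 5.33 kb. The widest promoter peaks below the limit were those of Actc1 with 4.63 kb, Myoz2 with 4.504 kb and Flnc with 4.495 kb. Further below it, Tnnt2 had 3.31 kb, Myh6 3.10 kb and Ttn 2.97 kb, while the thin filament genes Tpm1 and Tnnc1 had domains. In replicate 2 alone, Actc1 had 9.26 kb and Myh6 8.25 kb, and 13 members of the list reached 5 kb there, beside 6 in replicate 1. Myl3 had no promoter peak in the replicated list.

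Among 20 listed genes of calcium handling and the heart's electrical activity, 6 had a broad domain, beside 1.83% of all coding genes. Pln, the widest, was joined by its target Atp2a2, which encodes the calcium pump SERCA2. Atp2a2 had 8.17 kb at chr5:122494111-122502275, of which 90.1% lay in introns and 0.612% before the 5' end. It measured 6.503 kb in replicate 1 and 8.25 kb in replicate 2. Jph2, which encodes a protein that ties the cell membrane to the calcium store, had 7.49 kb, but 3.94 kb in replicate 1. Gja1, which encodes connexin 43 of gap junctions, had 6.63 kb, and was close to that in replicate 1 (6.54 kb) and replicate 2 (6.65 kb). The calcium channel gene Cacna1c had 5.80 kb and the potassium channel gene Kcnq1 5.14 kb. Of these 6, Pln, Atp2a2 and Gja1 reached 5 kb in replicate 1. Ryr2, the calcium release channel, had a promoter peak of 1.05 kb, and Trdn had none.

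Of 23 energy regulators and fatty acid genes, 6 had a broad domain (26.1%, beside 1.83% of all coding genes). Besides Hadha and Hadhb these were Ppargc1b, a coactivator of mitochondrial genes, with 8.16 kb, Lpl, which encodes lipoprotein lipase, with 7.88 kb, the fatty acid transporter gene Cd36 with 7.49 kb, and Fabp3, the fatty acid binding protein of heart muscle, with 6.24 kb. The Fabp3 domain was shared with Gm10570. Lpl and Cd36 varied little, with 7.71 and 7.32 kb in replicate 1 and 7.95 and 7.56 kb in replicate 2. Ppargc1b did vary, with 1.89 kb in replicate 1 and 8.78 kb in replicate 2. Acadm and Pdk4 lay just under the limit with 4.96 and 4.95 kb. All 23 members had a promoter peak, and so did all 20 genes of oxidative phosphorylation. The median promoter peak was 3.39 kb for the first of these lists and 1.81 kb for oxidative phosphorylation. Among 15 glycolysis and glucose uptake genes, the pyruvate kinase gene Pkm had 9.48 kb and the muscle enolase gene Eno3 6.35 kb. These were the only domains of the list (13.3%, beside 1.83% of all coding genes), and that of Eno3 was shared with Pfn1. Pkm reached 2.58 kb in replicate 1, where its domain was cut into 5 pieces, and 9.58 kb in replicate 2.

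Vessel wall genes were examined next. Of 22 endothelial genes, 8 had a broad domain (36.4%, beside 1.83% of all coding genes), and the median promoter peak was 4.08 kb. Eng had the widest, 9.87 kb at chr2:32641880-32651753, with 47.8% of its length upstream of the 5' end. It measured 6.26 kb in replicate 1 and 10.2 kb in replicate 2. Egfl7, a secreted factor of endothelial cells, had 7.84 kb, Sox18, a transcription factor of vessels, had 7.65 kb, and Kdr, which encodes the VEGF receptor VEGFR2, had 7.56 kb. Esam, Fli1, Fabp4 and Cdh5, the gene of VE-cadherin, had 5.68, 5.59, 5.19 and 5.07 kb. Of the list, 4 members reached 5 kb in replicate 1 and 10 in replicate 2, and Cdh5 missed it by 3 bp in replicate 1 with 4.997 kb. Below the limit were Cldn5 with 4.80 kb, Flt1 with 4.16 kb and Tek with 4.13 kb, and Erg and Vwf had no promoter peak.

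Of 18 fibroblast and matrix genes, 1 had a broad domain (5.56%), beside 1.83% of all coding genes and 3.43% of those with a promoter peak. A count of 1 in a list of this size is near the background. That gene was Dcn, which encodes the proteoglycan decorin. It had 7.93 kb, with 5.29 kb in replicate 1 and 7.94 kb in replicate 2, and its deposited fold of 5.80 was the lowest of all 362 domains. Vim followed with 4.83 kb, Col3a1 with 3.01 kb and Fbn1 with 2.90 kb, and Sparc had no promoter peak. Of 15 pericyte and smooth muscle genes, Mcam with 8.38 kb, Smtn with 6.21 kb and Cspg4 with 5.11 kb had domains (20.0%). None of them had a peak of 5 kb within 1 kb of its 5' end in replicate 1. The Smtn domain was overlapped there by a piece of 5.31 kb farther from the 5' end. None of 16 macrophage genes and none of 15 lymphocyte genes had a domain, and 6 and 1 of them had any promoter peak. The widest of these were 2.54 kb at Spi1, a transcription factor of myeloid cells, and 4.21 kb at Cd28, a receptor of T cells. No domain was found either at 15 hepatocyte genes, 15 neuron genes or 20 skeletal muscle genes, where 0, 1 and 4 had any promoter peak. At the share of 1.83% over all coding genes, lists of this size would hold few or no domain genes, so these counts of 0 do not set them apart.

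The labelled tissue was checked on a short set of defining markers. All 6 markers of heart muscle, all 4 of endothelium and all 4 of fibroblasts had a promoter peak, of which Nkx2-5, Pln, Cdh5, Kdr and Dcn had a broad domain. Pdgfrb, Acta2 and Rgs5 of pericytes and smooth muscle had peaks of up to 2.09 kb and Myh11 had none. The 4 macrophage markers, the 3 lymphocyte markers and the 2 markers each of adipocytes, neurons and hepatocytes had no promoter peak in the replicated list, although 6 genes of the longer macrophage list, 1 of the lymphocyte list and 1 of the neuron list did. Klf1 of erythroid cells had 1.13 kb and Wt1 of the epicardium 2.55 kb.

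Genes that respond to signals or to the time of day also had broad domains. Of 19 circadian clock genes, 5 had one (26.3%, beside 1.83% of all coding genes). Nr1d1, which encodes the clock repressor REV-ERB alpha, had 10.5 kb at chr11:98767918-98778409, with 4.36 kb in replicate 1 and 10.6 kb in replicate 2. Cry2 had 6.96 kb, Per1 6.25 kb, Per2 5.52 kb and Nfil3 5.38 kb. Only Per1 and Nfil3 reached 5 kb in replicate 1, at 5.61 and 5.36 kb, while 9 members did in replicate 2. Dbp, an output gene of the clock, stood just under at 4.50 kb. Of 25 immediate early genes, 5 had a domain (20.0%, beside 1.83% of all coding genes). These were Zfp36, which encodes an mRNA decay factor, with 8.99 kb, and the AP-1 genes Fosl2 with 7.39 kb and Junb with 6.76 kb. The others were the Krüppel-like genes Klf2 with 5.78 kb and Klf6 with 5.67 kb. All 5 also reached 5 kb in replicate 1, where Zfp36 had 8.82 kb. Ier2 lay just below the limit at 4.98 kb. The time of day at which the hearts were taken is not given in the sources used here.

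Of 23 genes of TGF-beta and BMP signalling, 6 had a broad domain (26.1%, beside 1.83% of all coding genes). Apart from the co-receptor gene Eng, they act inside the cell. Id1, Id2 and Id3 encode inhibitors of basic helix-loop-helix factors that BMPs induce, and had 7.41, 7.32 and 9.01 kb. Smad7 encodes an inhibitor of the receptors and had 7.23 kb, and Ski encodes a corepressor of SMADs and had 8.17 kb. Id2 was the least even of them, with 3.54 kb in replicate 1 and 7.74 kb in replicate 2. The others reached 5 kb in each pool. Among 20 nuclear receptors, the thyroid hormone receptor gene Thra had 7.81 kb beside Nr1d1, and among 17 genes of insulin and FOXO signalling only Irs1 had a domain.

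Lists of ribosomal protein genes, proteasome genes and chromatin regulators were counted as well. None of 20 ribosomal protein genes, 20 proteasome genes or 20 chromatin regulators had a broad domain, although 19, 19 and 15 of them had a promoter peak. The share over genes with a promoter peak was 3.43%, so a count of 0 in lists of this size is near the background. Their median promoter peaks were 1.40, 1.17 and 1.62 kb. Over all 22 lists, 60 of 419 distinct genes had a domain (14.3%). The lists were drawn up for genes of the heart and its cell types with earlier results in view, so this share says nothing about genes at large.

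**Figure D2:**
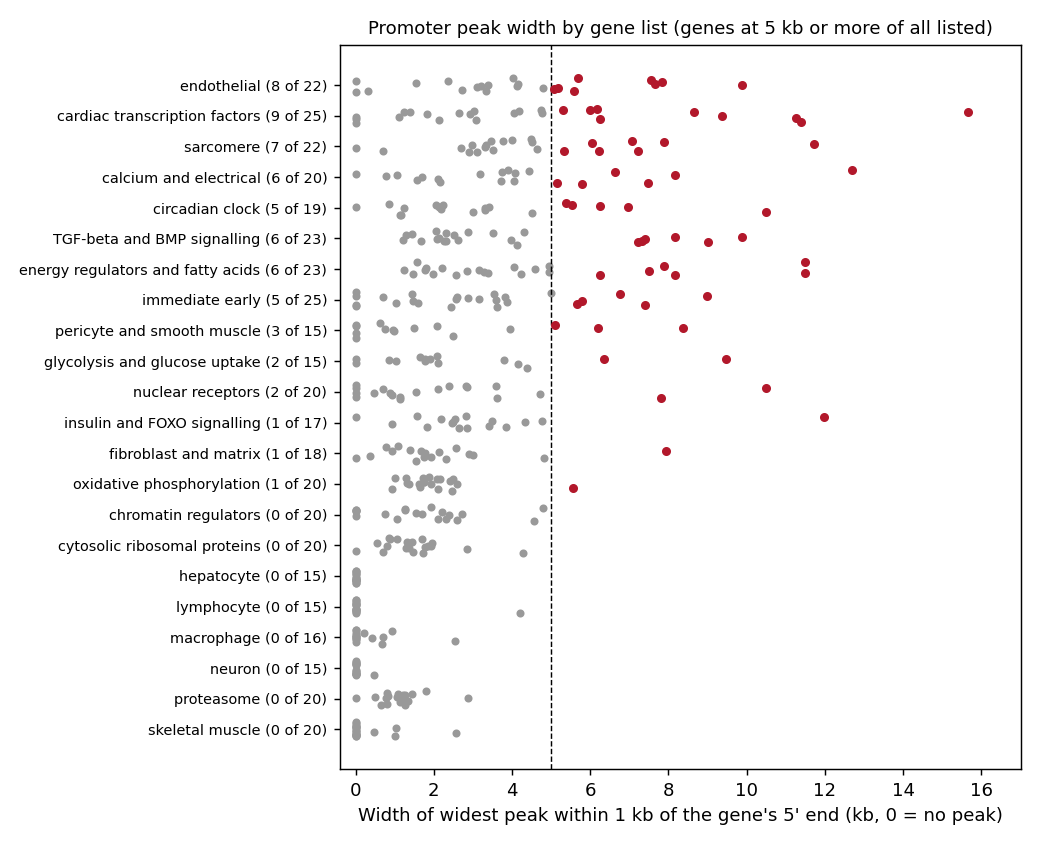
Width in kb of the widest peak within 1 kb of each gene's 5' end in the replicated list, 1 point per gene, by gene list in order of the share with a broad domain; red points are at or right of the dashed 5 kb line, and 0 means no peak. Endothelial genes and cardiac transcription factors have 8 of 22 and 9 of 25 points right of the line, and proteasome and ribosomal protein genes none of 20 each. The share over all coding genes was 1.83%, so a count of 0 in lists of 20 is near the background.

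Most domains leaned into the gene. The median domain had 79.3% of its length downstream of the 5' end (quartiles 61.4% and 90.8%), beside 67.8% for promoter peaks of 2 to under 5 kb and 66.3% for those under 2 kb. In length this was a median of 4.91 kb downstream and 1.30 kb upstream. More length lay downstream than upstream in 309 of 362 domains, which is 85.4% (95% exact binomial interval 81.3% to 88.8%, counting error only), in 78.1% of the middle class and in 66.1% of the narrowest. The narrowest class often sits beside the 5' end without covering it. Among peaks with the 5' end inside, the shares were 85.3% of 327 domains, 78.6% of 2185 middle peaks and 78.6% of 5600 narrow peaks. At 1 kb before the 5' end 62.4% of domains were present, and at 1 kb after it 96.1%. At 5 kb the figures were 5.52% before and 48.6% after.

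**Figure D3:**
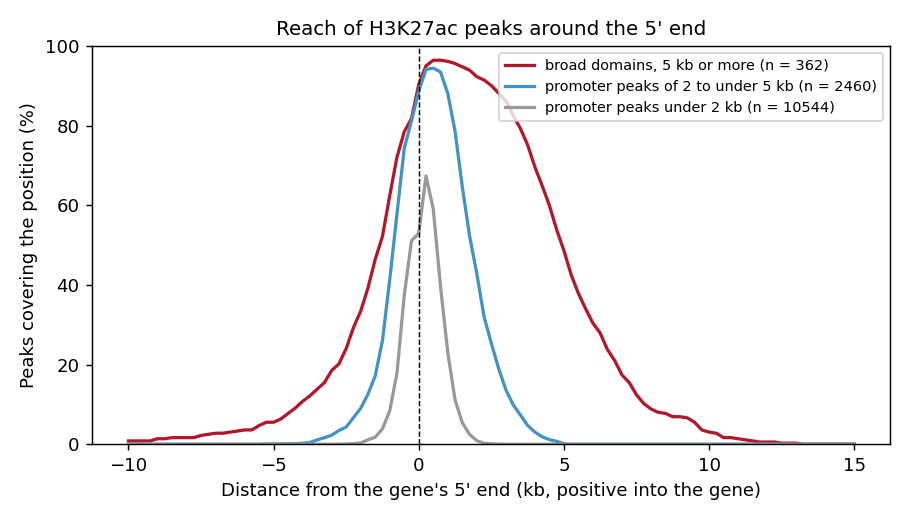
Share of peaks that cover each position, in %, against the distance from the gene's 5' end in kb (positive into the gene), for broad domains (red), promoter peaks of 2 to under 5 kb (blue) and those under 2 kb (grey). At 5 kb into the gene 48.6% of broad domains are still present, against 0.122% of the middle class and none of the narrowest.

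The point of highest signal stayed near the start less often. The summit lay within 500 bp of the 5' end in 57.5% of domains, beside 75.7% of the middle class and 84.6% of the narrowest, and over 2 kb away in 14.9% of domains, beside 2.68% and 0.0474%. A wider peak allows a more distant summit, so these shares describe the classes only. Irf2bp2, which encodes a transcriptional cofactor, was the extreme, with its summit 9.58 kb downstream of the 5' end and its domain of 11.2 kb starting 445 bp past it. Tmbim1, Qk, an RNA-binding protein gene, Ski and Josd2 also had their whole domain downstream.

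The downstream border was placed on the longest transcript that starts at the gene's 5' end. In 171 domains (47.2%) it lay in the first intron, in 96 in a later intron, in 40 in an exon after the first, in 5 in the first exon and in 45 past the 3' end of that transcript, which can be a short isoform. The domain ran past the 3' end of the whole gene record in 31 cases (8.56%). The 5 remaining domains ended upstream of the 5' end. First introns were long where the border lay inside them, with a median of 15.6 kb, and short in the other domains that had an intron, with 1.31 kb; a longer intron has more room for a border. By length, the median domain was 59.5% intron and 11.3% exon of its gene, with 22.8% outside the gene, beside 42.8%, 17.5% and 32.7% for the middle class.

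Short genes could be covered from end to end. A domain held the whole gene in 25 cases (6.91%), beside 1.75% of the middle class and 0.199% of the narrowest. The longest such gene was Nr1d1, 7.40 kb long, under its domain of 10.5 kb. Bcl6b, a zinc-finger repressor gene related to Bcl6, was 5.67 kb long under 10.7 kb, and Ly6e, a small membrane protein gene, 4.86 kb under 7.65 kb. S1pr1, the receptor of sphingosine-1-phosphate on endothelium, was 4.64 kb long under 7.37 kb, and Gng11, a G protein subunit gene, 4.54 kb under 7.58 kb.

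At 5 genes, 2 broad domains stood side by side at the 5' end with a gap of 83 to 160 bp. At Pln, a domain of 12.7 kb lay wholly upstream and one of 6.75 kb ran into the gene from 83 bp further on. Hand2 had 11.4 kb upstream and 9.37 kb over the gene, with 87 bp between them, and the 5' end of the non-coding gene Hand2os1, on the other strand, lay within 1 kb of the second. Txnip, a glucose-responsive gene, had 7.26 kb upstream and 8.01 kb over the gene with a gap of 99 bp. Tnrc18 had 6.48 and 5.08 kb with 160 bp between them. At Gm20532, which overlaps Egfl7, domains of 7.84 and 5.14 kb were 87 bp apart, and in replicate 2 a single peak of 23.6 kb spanned both. The upstream domains of Hand2, Pln, Tnrc18 and Txnip, and that of Ivns1abp with 6.18 kb, were the 5 that lay entirely upstream.

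Fewer broad domains than other promoter peaks had a CpG-rich 5' end, and more had a CpG-poor one. The CpG ratio is the observed number of CpGs over that which the C and G content would give, taken in the 500 bp either side of the 5' end. An end was called CpG-rich at a ratio of at least 0.75 with at least 55% GC, and CpG-poor under 0.48. Of the domains 34.8% were CpG-rich (interval 29.9% to 40.0%), beside 48.9% of the middle class and 42.3% of the narrowest. CpG-poor ends made up 29.3% of domains (24.6% to 34.3%), beside 18.1% and 15.1%. The intervals cover counting error only, and regions are not replicates. The most CpG-poor ends belonged to Fhl2, with a ratio of 0.0785, Tnnc1, the troponin C gene of heart muscle, with 0.0809, Cnot6l with 0.104, Rcsd1 with 0.116 and Nmrk2, a muscle NAD biosynthesis gene, with 0.119. Across the 362 domains, width had almost no rank relation to the CpG ratio of the 5' end (Spearman rho 0.003, a description over domains from the same libraries). The median width was 6.20 kb for CpG-rich and 6.26 kb for CpG-poor ends.

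**Figure D4:**
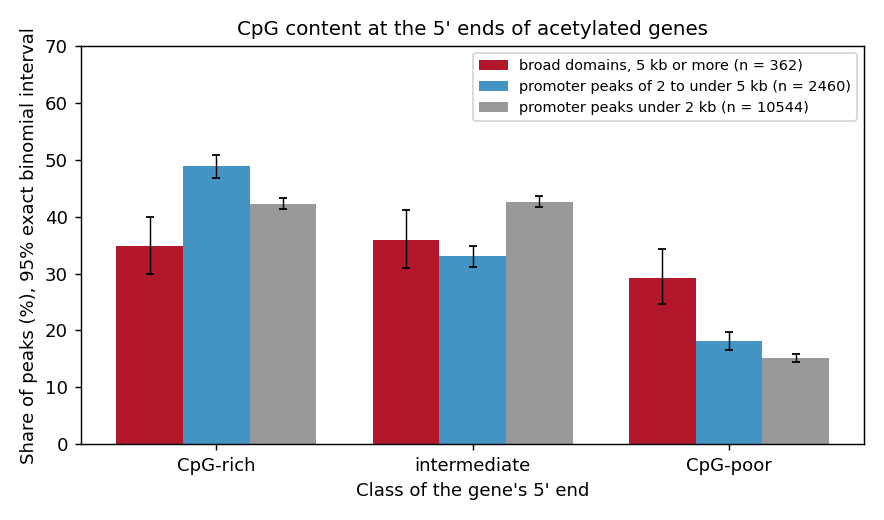
Share of peaks in % whose 5' end is CpG-rich, intermediate or CpG-poor, for broad domains (red), promoter peaks of 2 to under 5 kb (blue) and those under 2 kb (grey), with exact binomial 95% intervals for counting error. Broad domains have 34.8% CpG-rich and 29.3% CpG-poor ends, against 42.3% and 15.1% in the narrowest class.

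Over their whole length the domains had a median CpG ratio of 0.377, beside 0.597 for the middle class, 0.661 for the narrowest and 0.228 for the peaks of at least 5 kb elsewhere. A wider window takes in more sequence away from the start, so this ratio moves with width. Soft-masked repeats made up 13.01% of the median domain, beside 10.7%, 7.18% and 14.9% in the same order.

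Short consensus sequences were counted on both strands in the window from 250 before to 50 after the 5' end, for 401 domain genes, 11288 other genes with a promoter peak and all 21938 coding genes. The SP1 box GGGCGG stood in 60.8% of domain genes, 62.3% of the others and 43.0% of all. The ETS sequence CCGGAAG stood in 9.23%, 18.03% and 10.8%, and the YY1 sequence AAGATGGCG in 0.499%, 3.003% and 1.70%. The NRF1 sequence GCGCATGC stood in 2.99%, 5.48% and 3.71%, and the cyclic AMP element TGACGTCA in 1.75%, 3.52% and 2.43%. The shares of these 4, each with a CpG in its letters, were lower in domain genes than in the others, while that of GGGCGG was nearly equal. Among sequences of muscle and vessel factors, the ETS share given above was lower in domain genes than in the others. AGATAA of GATA factors stood in 8.48% of domain genes against 6.20% of the others. CATTCC of TEAD factors stood in 13.7% against 11.7%, and the E-box CANNTG, which the clock sequence CACGTG overlaps, in 64.6% against 62.9%. The MEF2 sequence CTAAAAATA stood in 0.748% against 0.363%, which is only 3 domain genes, and in 0.479% of all. The CCAAT box stood in 32.9% against 38.5%, TATAAA in 8.73% against 7.08% and CACGTG in 7.73% against 10.4%. The AP-1 sequence TGANTCA stood in 5.99% against 4.42% and the ERR sequence TCAAGGTCA in 0.748% against 0.310%. Over all coding genes these shares, in the same order, were 39.0%, 12.6%, 7.75%, 6.91% and 0.474%. A match describes letters in a window and is not a bound site. Of the windows printed above, only that of Myom1 held an AP-1 and a TEAD sequence, and only that of Pln held TATAAA and AGATAA.

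Broad domains lay in richly acetylated surroundings. In the 50 kb on either side, other peaks covered a median of 13.7 kb with 11 peaks around a domain, beside 7.17 kb and 7 peaks around the middle class and 4.02 kb and 5 peaks around the narrowest. Around the 480 peaks of at least 5 kb elsewhere these were 20.6 kb and 16 peaks. The next peak began within 500 bp of the domain's edge in 232 domains (64.1%), and the median gap was 225 bp, so many domains ended at a short break between called peaks. The 5' end of a long non-coding RNA gene lay within 1 kb of 70 domains (19.3%), beside 15.04% and 10.8%, and that of a microRNA gene within 1 kb of 11 (3.04%), beside 2.48% and 1.24%. Those within 1 kb of the Bcl6b domain were Mir195a, Mir497 and Mir497b, that of Eng had Mir1954, and that of Gm20532 the endothelial Mir126a with Mir126b. A wider peak has more room for a non-coding 5' end, so the shares with one describe the classes only.

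The deposited fold had a median of 20.2 in broad domains, 17.95 in the middle class, 9.23 in the narrowest and 14.4 in wide peaks elsewhere. The domains' median was at percentile 84.9 of all peaks. Of the domains, 126 were among the 10% of all peaks with the highest fold and 23 were below the median of all peaks. Within the domains, which were chosen on width and so span part of its range, the rank relation of fold to width was weak (Spearman rho 0.13 over 362 domains, which share libraries). The lowest −log10 q of a domain was 17.3, so that the authors' q-value removed none.

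Each of the 362 was overlapped by a peak in each single-pool list, as the derivation of the replicated list from both pools makes likely, and so was each of the 2460 peaks of the middle class. A peak of at least 5 kb overlapped 211 domains in replicate 1 (58.3%) and 360 in replicate 2 (99.4%), and 210 did so in both (58.0%, interval 52.7% to 63.1%). Genes with such a promoter peak numbered 230 in replicate 1 (1.05% of coding genes) and 629 in replicate 2 (2.87%). The widest overlapping peak was wider in replicate 2 in 346 of the 362, by a median factor of 1.32. The cause of this offset was not tested, and the depth of the libraries is unknown. Jam2, a junction gene of endothelium with 5.38 kb, was the only domain to miss 5 kb in both lists, with 4.90 kb in replicate 1 and 4.50 kb in replicate 2. Map3k5 was the only domain to reach it in replicate 1 alone.

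In replicate 1 many domains were broken into pieces. The peaks of replicate 1 covered a median of 96.3% of the length of a domain, yet only 160 domains (44.2%) were in a single piece there, beside 354 (97.8%) in replicate 2. Pcdh12, a cadherin gene of endothelium, was split into 7 pieces of at most 1.45 kb in replicate 1 and was a single peak of 8.98 kb in replicate 2. Hsdl2 was split into 6 pieces, and Mfn2, Pkm and the upstream domain of Hand2 into 5 each. Joining peaks up to 500 bp apart raised the share that reached 5 kb in both lists to 92.0%. By the width of the domain, 40.0% of those under 6 kb, 64.8% of those from 6 to under 8 kb and 82.3% of those of 8 kb or more reached 5 kb in both, an order that the distance from the limit sets.

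**Figure D5:**
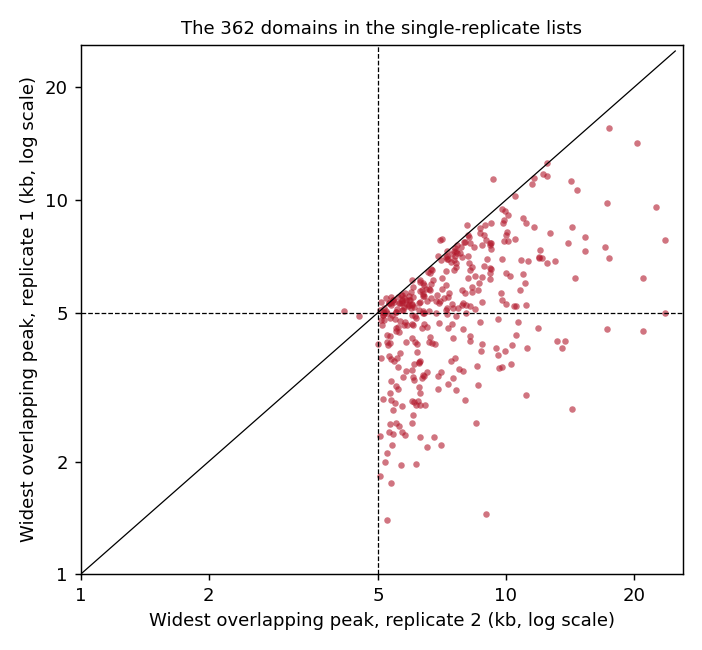
Width in kb (log scales) of the widest peak that overlaps each of the 362 domains in the list of biological replicate 1 (vertical) against that of biological replicate 2 (horizontal), 1 point per domain; the solid line marks equal width and the dashed lines 5 kb. Nearly all points lie under the line of equal width, 346 of 362, and 150 lie right of the vertical and below the horizontal dashed line.

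Domains were spread over all autosomes. The share of coding genes with a domain was lowest on chromosome 16 among them, at 0.904%, and highest on chromosome 18, at 3.70%. On the X chromosome 1 of 948 coding genes had one (0.105%), or 0.302% of its 331 genes with a promoter peak, beside 1.83% and 3.43% for the genome. That gene was Tmsb4x, which encodes the actin-binding thymosin beta 4, with 5.41 kb, 4.96 kb in replicate 1 and 7.27 kb in replicate 2. None of 183 coding genes of the Y chromosome had a domain, in tissue from females.

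Shared domains were about as common as among other promoter peaks: 11.3% held 2 or more coding 5' ends, beside 13.5% and 12.4%. The most were 3, at Myl12b with Myom1 and Myl12a, at Atf5 with Il4i1 and Nup62 in 5.49 kb, and at Cyb5d1 with Naa38 and Tmem88 in 5.39 kb. For such genes the width is that of the whole domain and cannot be divided among them.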

How the data were processed

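H3K27ac was measured by chromatin immunoprecipitation sequencing in 4 heart libraries of 1 group. The deposited files were 4 peak lists on mm10 per the labels: replicated, pseudoreplicated on both pools, and 1 per pool. Technical replicates had been joined before, so no list holds a single library. Each deposited list gives position, a display score (not used), the authors' fold (read from the order of columns as a ratio over control), and the authors' −log10 p-value and −log10 q-value. Not given in the sources used here: aligner, peak caller, read numbers and depth. Fold and q were used within a list only.

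Peaks were joined to GENCODE M21 gene records and GRCm38 sequence with Python 3.11.15, pandas 2.3.3, numpy 2.4.6, scipy 1.17.1 and pyfaidx 0.9.0.4. A domain was assigned to the coding 5' end nearest its summit within 1 kb. Where a listed symbol had several gene records, the list counts under each setting used the record with the widest promoter peak in the replicated list. Overlap meant at least 1 bp. The finding of domains was checked on simulated peaks. No test was run: values are counts, medians and quartiles with exact binomial 95% intervals. Alternatives varied the width limit, distance, start sites, peak list, q, joining of peaks and CpG limits.

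The members and the 22 gene lists were chosen with earlier results of these data known. Genes named were the 15 widest domains, up to 3 domain genes per list with members below the limit, the 3 to either side of the limit, and the extremes for position, whole genes, pieces, CpG ratio, shared 5' ends and X. Other domain genes of the lists, Jam2, Map3k5, Spi1, Cd28, Ttn, the genes with 2 domains, and genes beside microRNAs were named after their values were seen. Some items that the rule selects are not reported here.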

Additional observations from a re-analysis of the deposited data

How the results depend on the processing

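With peaks as deposited, the numbers of domains and genes moved with the width limit and with the joining of peaks. A limit of 4000 bp gave 640 domains at 710 genes, with 92 genes of the lists, and one of 7500 bp gave 104 domains at 116 genes, with a median of 83.5% of the length downstream. Joining peaks within 500 bp gave 779 domains at 877 genes, and 92.0% of the 362 domains then reached 5 kb in both single-pool lists, against 77.1% with a limit of 4000 bp there. With start sites of any coding transcript, the 527 domains had 72.3% of their length downstream and 28.5% CpG-rich ends. CpG-rich ends made up 45.0% with a window of 250 bp either side and 61.3% with a ratio of 0.6 and 50% GC. Under each of these CpG settings broad domains had fewer CpG-rich ends than both narrower classes. With the window of 250 bp they had more CpG-poor ends, at 27.3%, beside 18.3% of the middle class and 14.3% of the narrowest. The ratio under which an end was called CpG-poor was not varied.

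Leaving out a pool gave 203 domains at 230 genes in the list of replicate 1 and 557 at 629 genes in that of replicate 2. Over the same lists the downstream share was 78.3% to 80.1%, the CpG-rich share 36.4% to 37.9%, and the genes of the lists with a domain 40 to 90. Without replicate 2, 16 of 37 list counts and single widths moved by over 1.5 times, and without replicate 1, 7 did. A list with no domain gene counted as unmoved if it again had none. The single widths here are of the widest peak within 1 kb of the 5' end, not of the widest overlapping peak. For E030018B13Rik this was 1.825 kb in replicate 1. The pooled pseudoreplicated list also gave 362 domains, but it comes from the same pools as the replicated list and is no independent check. A q of 0.05 could remove none of the 362, since their lowest −log10 q was 17.3. No paired analysis was possible because there is 1 group and its replicates are compared through peak lists only. The cause of these shifts was not tested, and unknown depth limits what the difference in width between pools can show.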

Other observations

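Some gene families had several broad domains. These families were picked after the values were seen, by a shared symbol stem with at least 3 domain genes, so their counts are descriptions. Of 17 coding Krüppel-like genes, 7 had a domain: Klf3 with 12.1 kb, Klf9 with 9.31 kb, Klf7 with 6.33 kb, Klf2 with 5.78 kb, Klf12 with 5.76 kb, Klf13 with 5.71 kb and Klf6 with 5.67 kb. Of these, 4 also reached 5 kb in replicate 1, at 11.8 kb for Klf3, 6.87 kb for Klf9, 5.39 kb for Klf2 and 5.50 kb for Klf6. Of 4 Id genes, 3 had a domain. Of 40 genes named as regulatory subunits of protein phosphatase 1, 7 had one, among them Ppp1r2 at the limit. The share over all coding genes was 1.83%, and larger stems lay near it, with 7 of 391 for Zfp, 7 of 241 for Tmem and 4 of 177 for Fam. Col4a1 and Col4a2, the basement membrane collagen genes that share a start region, had a single domain of 9.18 kb.

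Some genes with a broad domain at the 5' end had a further wide peak inside the gene. Of 401 domain genes, 54 (13.5%) had another peak of at least 5 kb in the gene body away from coding 5' ends, beside 198 of the 11288 other genes with a promoter peak (1.75%) and 254 of all 21537 other coding genes (1.18%). Gene length was not matched. The widest was in Cd36, with 22.4 kb, more than its promoter domain of 7.49 kb. Gata4 had 2 such peaks, the wider of 15.5 kb, beside a promoter domain of 6.25 kb. Actn4 had 5 and Ablim1 had 4. Of the 480 wide peaks outside coding 5' ends, 165 lay at an internal start site of a coding gene, 60 at the start of a non-coding gene only and 255 at none.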
